A study of Mus musculus with 3 samples.

Results

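Long transcribed runs are stretches of an autosome in which neighbouring 10 kb windows all carried RNA-seq alignments in every library of mouse 2-cell embryos. Members were selected on their measured density, that is, the number of alignments in each kb for every 1000000 alignments to nuclear sequence. A window had to reach a density of 1 or more in all 3 litters and to lie in a row of 4 or more such windows. Of 247243 windows on the 19 autosomes, 8088 reached the level in every litter, which is 3.27% of those tested. Of these, 780 lay in rows of 4 or more and formed 158 runs that span 7.80 Mb in all. Members were 0.315% of autosomal windows, and they held 7.11%, 8.45% and 8.23% of autosomal alignments in litters 1, 2 and 3.

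The study had 1 group of 3 litters of 2-cell embryos collected at embryonic day 1.5, and each library pooled the embryos of a litter. The mothers were LSD1 FL/FL, that is, homozygous for a floxed allele of a histone demethylase gene, and negative for ZP3::Cre, a transgene that drives Cre recombinase in growing oocytes. The labels give a mixed strain background with C57/Bl6J and name the fathers as wild type CB6 in one field and as C57/Bl6J in another. RNA was amplified straight from lysed embryos by SPIA, which makes many cDNA copies of the RNA at a constant temperature, so all 3 litters share the floxed allele, the missing Cre and the amplification, and the design holds no contrast between conditions.

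A gene is transcribed as a precursor RNA along its whole length, and splicing then removes the introns. Mature mRNA therefore leaves alignments over exons only, while precursor RNA, or a transcript without introns, covers a region without large gaps. The oocyte stores mRNA for the first divisions, and in the mouse the embryonic genome is activated mainly at the 2-cell stage, so RNA from both sources can be present. Fewer cells and less RNA per cell cannot be told apart in pooled litters.

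Litters 1, 2 and 3 held 34014013, 32431630 and 40474940 nuclear alignments, recovered from the deposited coverage as ungapped pieces of 72 bases. The level of 1 equals 340, 324 and 405 alignments in a 10 kb window, far above the limit of 3 alignments that a count of 0 allows, which is a density of 0.00882, 0.00925 and 0.00741. Coverage carries no strand, so overlapping and antisense genes cannot be told apart, and a read that fits several places may be counted at each. The RNA level of markers of oocytes, of activated 2-cell embryos and of cumulus cells was not read. The reason is that gene positions in mm9, the genome build of the files, were not used here. Lists of such markers were only compared with the names given to runs.

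Genes were named by pattern in place of position. Within each run, shared blocks were marked, which are stretches of 30 or more bases with a coverage of 3 or more in every litter. Their edges were compared with the exon edges of all GENCODE M21 genes by lengths and distances alone, and 82 of the 158 runs matched 1 gene of the same chromosome at 10 or more edges and 1.5 times as often as at any other place. The search covered all chromosomes, and 82 of the 83 runs that passed these thresholds matched a gene on their own chromosome. The match for the other run was set aside. A median of 15 edges matched, from 10 to 52, against a median of 6 at the next best place.

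The 6 coding exons below show what a match looks like, 1 from each of 6 runs with many matched edges, chosen as short, wholly coding and matched at both ends. Letters are the spliced transcript in GENCODE M21, 5′ to 3′ on the gene's strand. Capitals mark the exon bases that lie inside a shared block. Lower case marks exon bases outside the block and 15 bases of the exon before and of the exon after.
Tpr: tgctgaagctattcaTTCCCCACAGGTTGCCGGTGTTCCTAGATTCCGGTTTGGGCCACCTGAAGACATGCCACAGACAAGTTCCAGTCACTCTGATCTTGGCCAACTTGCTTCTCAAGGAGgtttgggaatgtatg
Cnot1: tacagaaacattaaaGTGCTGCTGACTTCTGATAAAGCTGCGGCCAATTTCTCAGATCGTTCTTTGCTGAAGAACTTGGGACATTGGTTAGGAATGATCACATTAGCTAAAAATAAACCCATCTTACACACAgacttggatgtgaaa
Trip12: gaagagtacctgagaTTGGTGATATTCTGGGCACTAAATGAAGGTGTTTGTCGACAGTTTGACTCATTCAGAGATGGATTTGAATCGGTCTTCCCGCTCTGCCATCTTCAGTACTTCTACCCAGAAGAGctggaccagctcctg
Atp13a3: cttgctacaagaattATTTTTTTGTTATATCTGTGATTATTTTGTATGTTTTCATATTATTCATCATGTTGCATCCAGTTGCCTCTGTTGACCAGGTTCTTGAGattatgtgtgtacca
Med13: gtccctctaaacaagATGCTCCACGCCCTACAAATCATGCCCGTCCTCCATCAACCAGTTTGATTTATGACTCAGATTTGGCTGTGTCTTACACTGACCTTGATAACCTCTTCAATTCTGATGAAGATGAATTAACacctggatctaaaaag
Rif1: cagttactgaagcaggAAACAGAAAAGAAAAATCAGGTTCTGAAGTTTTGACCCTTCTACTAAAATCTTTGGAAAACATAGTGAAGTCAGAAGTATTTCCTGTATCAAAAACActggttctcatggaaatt

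In mm9 the block over exon 46 of 51 of Tpr lies at chr1:152291497-152291608 on the plus strand and spans 112 bases against 107 bases of exon. The Cnot1 block (chr8:98269474-98269594, minus strand, exon 26 of 48) spans 121 bases over an exon of 117. In Trip12 (chr1:84722775-84722889, minus strand, exon 38 of 41) the block has 115 bases and the exon 114. Each of these blocks stops within 3 bases of the exon's edges. The Atp13a3 block (chr16:30329039-30329131, minus strand, exon 31 of 34) has 93 bases against 89. The Med13 block (chr11:86117034-86117156, minus strand, exon 12 of 30) has 123 against 122. In Rif1 (chr2:51947805-51947901, plus strand, exon 15 of 36) the block has 97 bases against 101, and it ends 3 bases before the exon does. Mean coverage over the 6 blocks ranged from 0.928 in Rif1 to 4.04 in Cnot1, in alignments over a base per 1000000 nuclear alignments.

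Most runs were short. There were 78 runs of 4 windows, 44 of 5, 19 of 6 and 11 of 7, and 6 were longer. The median length was 50 kb. The longest, of 11 windows, were on chromosomes 1 and 11. Chromosome 1 carried 27 runs, which covered 0.740% of its windows. Chromosome 11 followed with 15 runs and 0.632%, and chromosome 4 with 14 runs and 0.379%. These counts include series of runs whose starts recur in each other, as described with the copied runs. The series hold 6 runs with 39 windows on chromosome 1 and 9 runs with 39 windows on chromosome 4. Chromosomes 8 and 9 had 3 runs each, which covered 0.106% and 0.0967% of their windows. With each start position counted once per litter, density was scaled to all distinct starts in place of nuclear alignments. Distinct starts numbered 9460348, 11366964 and 10508870 in litters 1, 2 and 3, so the level of 1 asked for fewer counts in a window. On that lower bar 498 runs passed, which is not a gain at the same level. With all alignments counted, a level of 2 in place of 1 gave 57 runs, and a level of 0.5 gave 393.

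**Figure D1:**
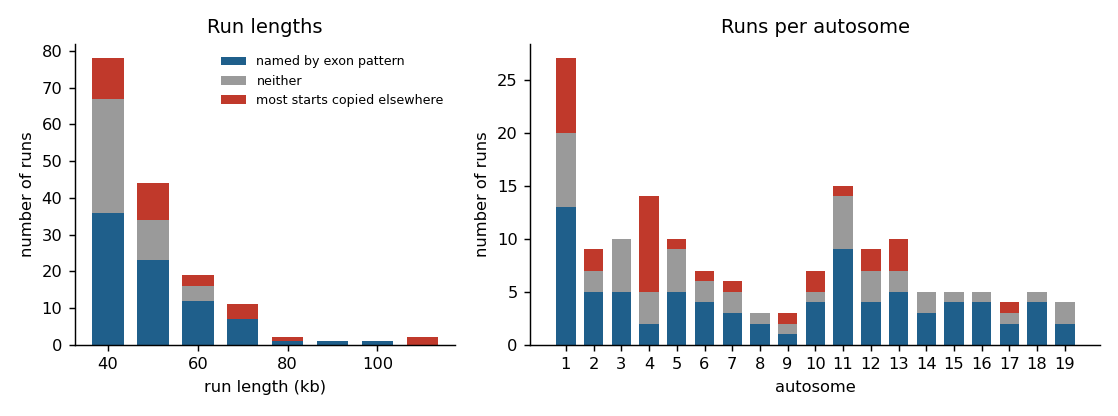
Number of runs by length in kb (left) and by autosome (right), with colours for runs named by exon pattern, runs in which most alignment starts recur elsewhere, and the others. Of 158 runs, 78 are 40 kb long, and chromosome 1 holds 27.

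Among the 10 longest runs, 5 were named: Wnk1, Med13, Rock1, Kmt2c and Gpbp1. The Wnk1 run (chr6:119870001-119970000, 10 windows) held a density of 10.4, 12.2 and 14.8 in litters 1, 2 and 3. Wnk1 encodes a kinase that controls ion cotransporters. The Med13 run (chr11:86080001-86170000, 9 windows) had 5.03, 4.34 and 4.70, which are close together, and Med13 is a subunit of the Mediator kinase module. Rock1, a kinase that acts on the actin cytoskeleton, filled 8 windows (chr18:10060001-10140000) with 8.36, 6.26 and 9.68. Kmt2c, a histone H3K4 methyltransferase, filled 7 (chr5:24790001-24860000) with 9.65, 11.4 and 14.8, and Gpbp1, a GC-rich promoter binding protein, also filled 7 (chr13:112210001-112280000) with 8.58, 11.2 and 12.5. By total nuclear alignments litter 3 was the highest in 4 of these 5 runs and litter 1 in Med13, and after scaling by the median of ratios litter 3 was the highest in all 5. The others of the 10 longest were chr11:60400001-60510000 and chr1:87440001-87550000 with 11 windows, chr2:121250001-121330000 with 8, and chr1:85230001-85300000 and chr12:89050001-89120000 with 7. In all 5 of these, most alignment starts recur at other places, as described with the copied runs.

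Run densities ranged from 2.11 to 88.6 with a median of 6.14 (means over 3 litters). The 5 densest were chr11:60400001-60510000 with 92.5, 96.5 and 76.7, chr6:89120001-89170000 with 48.5, 51.9 and 63.9, chr1:85230001-85300000 with 27.6, 40.8 and 36.8, chr1:134880001-134930000 with 22.7, 33.8 and 34.7, and chr1:84960001-85010000 with 19.7, 31.2 and 26.7. None of the 5 was named. Only the fourth of them, on chromosome 1 at 134.88 Mb, was not a copied run, with 22.7% of its starts in recurring stretches. Among named runs the densest was Suz12, a subunit of Polycomb repressive complex PRC2, with 20.7, 18.1 and 24.5.

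Coverage along runs was broken into pieces. Alignments covered a median of 28.2%, 34.9% and 27.4% of a run's bases in litters 1, 2 and 3, and a mean over litters of 30.3% at the median run, from 8.32% to 80.6%. A run was called even where at least 75% of its 1 kb bins held the level in every litter and block-like where at most 50% did. By this measure 142 runs (89.9%) were block-like, 14 were mixed and 2 were even. The count depends on the definition. Called by covered bases instead, 27 runs were block-like (under 25% in every litter) and 6 were even (at least 50% in every litter). The median run had 32.9% of its 1 kb bins at the level. The densest 10% of its 100-base bins held 87.1% of its alignments.

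**Figure D2:**
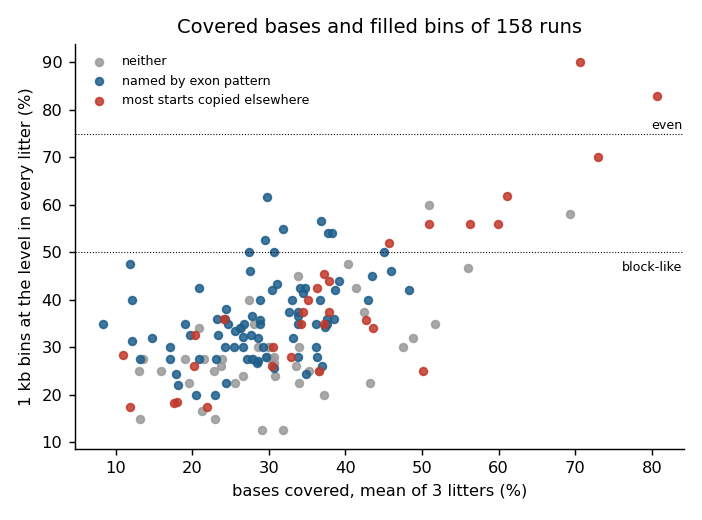
Share of bases covered (x axis, %, mean of 3 litters) and share of 1 kb bins at a density of 1 or more in every litter (y axis, %) for each of 158 runs. Dotted lines mark 50% and 75%, and the 2 runs above the upper line are copied runs.

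The lowest covered share belonged to Arfgef1, an exchange factor for Arf GTPases, at chr1:10170001-10210000. There, 9.59, 7.74 and 7.63% of bases were covered in litters 1 to 3 at densities of 5.87, 4.96 and 5.43. Jak2, a cytokine receptor kinase, had 12.2, 11.7 and 11.7% at chr19:29350001-29390000, and Cul1, the scaffold of SCF ubiquitin ligases, had 13.7, 9.06 and 13.7% at chr6:47450001-47490000. These runs had few blocks, 16, 20 and 20 in that order. The remaining runs of the lowest 5 were chr13:23620001-23680000 with 10.9% and chr1:172980001-173020000 with 11.8%, both copied runs without a name. At the other end, chr1:85230001-85300000 had 77.4, 87.5 and 77.1%, chr1:85070001-85130000 had 68.0, 85.7 and 65.0%, and chr9:3000001-3040000 had 66.6, 79.3 and 65.8%. All 3 are copied runs. The fourth, chr3:58220001-58270000, had 68.1, 68.6 and 71.3% and was neither copied nor named. The fifth, chr1:87440001-87550000, had 57.7, 72.1 and 53.4% and was copied.

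**Figure D3:**
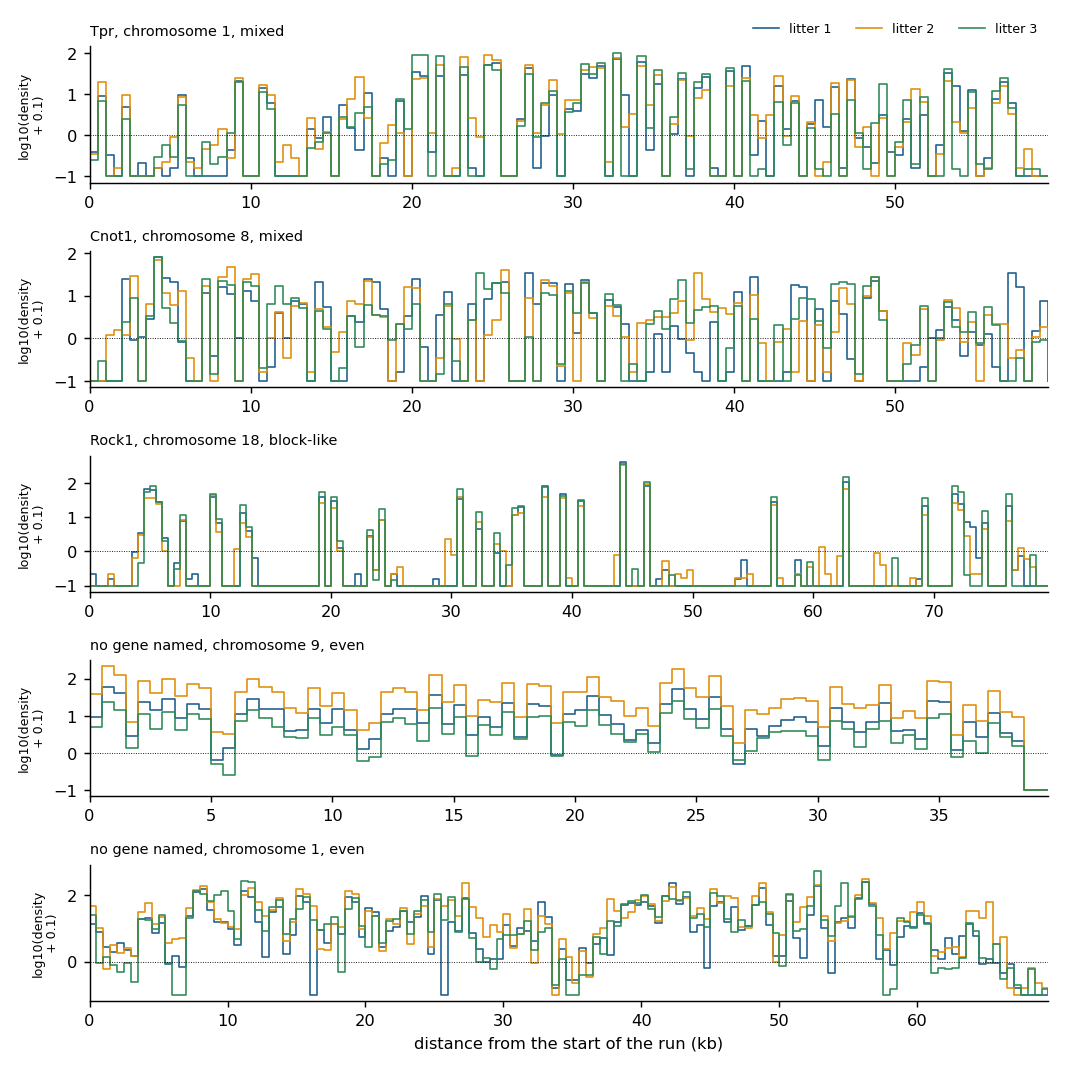
Density in 500-base bins, as log10(density + 0.1), against distance in kb from the start of the run, in litters 1 to 3. Tpr, Cnot1 and Rock1 rise and fall in narrow peaks, some of which, as in Cnot1, are high in 1 litter only, while the 2 even runs stay above 1 (dotted line) over most of their length.

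In all, the runs held 4625 shared blocks. Their median length was 133 bases (quartiles 85 and 221), 75.8% were between 50 and 300 bases, and 144 were longer than 1000. A run had a median of 26 blocks, from 8 to 135. Blocks took 11.2% of a run's bases and 86.2% of its aligned bases at the median. The gap between neighbouring blocks was 910 bases at the median run. The longest block, of 3792 bases, lay in the unnamed run chr4:146120001-146170000. The next, of 3612 bases, lay in chr1:6220001-6270000, the run of Rb1cc1, an autophagy protein, which is singled out here after its value was seen.

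Member windows were covered over more of their bases than expressed windows in shorter rows of the same density band. Density was not matched within a band, and the highest band has no upper limit. In windows of density 1 to 3, 21.4%, 29.1% and 21.7% of bases were covered in 222 members, against 17.1%, 20.4% and 16.4% in 2816 other windows. Between 3 and 10 the values were 29.0%, 36.0% and 28.1% in 372 members against 21.1%, 24.7% and 20.6% in 3297. At 10 or more they were 41.9%, 50.6% and 41.1% in 186 against 23.6%, 27.0% and 23.1% in 1195. All 3 litters were higher in members in each band. The mean differences were 6.10 ± 2.29, 8.91 ± 2.09 and 20 ± 3.10 percentage points (SD, n = 3). Members of copied runs, described with the repeats, are 170 of the 780 windows, and their runs had a median covered share of 36.5% against 28.9% in named runs. A two-sided exact permutation test that flips the sign of each litter gave p = 0.25 in each band, the smallest value that 3 litters allow.

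In the 82 named runs, alignments lay mainly in exons. The genes are all protein coding, 40 on the plus and 42 on the minus strand. Exons of the named gene took 16.1% of a run's bases at the median, and 76.2%, 74.7% and 75.2% of its alignments lay wholly inside them in litters 1, 2 and 3. Introns held a median of 13.2%, 12.8% and 12.8%. With the exons moved by 500 bases to either side, the exon share was 25.7% at the median. Because the names were found by fitting blocks to exon edges, these shares describe the fit and do not test it. Exon density was above intron density in every litter in all 82 runs. In 80 of them introns held alignments in every litter, and exon density was over 10 times as high in all litters in 60 of these 80. In the other 2 runs, Cul1 and Nol8, a litter had no intron alignment. Of 1521 exons of 72 or more bases in these runs, 1461 (96.1%) held an alignment in all 3 litters. For each gene the transcript with most edges matched to shared blocks was used, and shared blocks are covered in every litter by definition. This count, and those of exons with alignments in single genes and groups, therefore also describe the fit and do not test it.

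**Figure D4:**
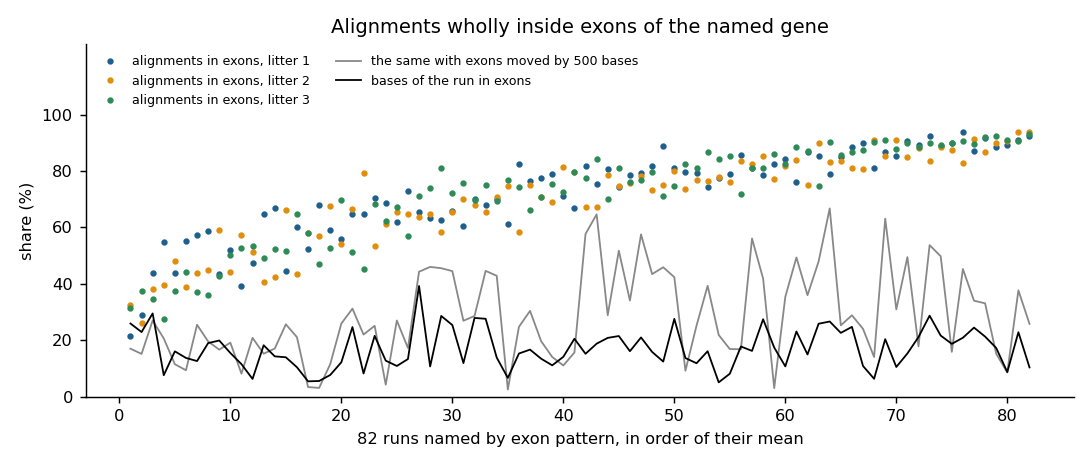
Share of a run's alignments that lie wholly inside exons of its named gene (%, points for litters 1 to 3) in 82 runs, ordered by their mean. The black line is the share of the run's bases in exons and the grey line the alignment share after moving the exons by 500 bases, the mean of both directions; the points lie above the black line in every run other than that of Pds5a, where a litter falls below it.

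Of the 82 named runs, 43 were sorted by role after their values were seen, and the others were not grouped. The share of each role among all long genes was not computed, so the groups show no excess of any role. Genes of nuclear transport formed a first group, with 7 runs. Run densities went from 2.74 to 9.25, and a median of 78.3% of alignments lay in exons. Tpr, a protein of the nuclear pore basket, had all 51 exons inside its run (chr1:152240001-152300000) and 52 matched edges. Its density was 8.19, 9.39 and 10.2, and 82.5, 77.3 and 85.9% of alignments lay in exons that take 17.4% of bases. Ranbp2, a nucleoporin of the cytoplasmic filaments, had 3.95, 5.87 and 5.46. The exportin Xpo1 had 3.48, 4.95 and 5.83, and the importin Ipo5 had 7.14, 4.99 and 11.5, with litter 2 the lowest. Nup98, another nucleoporin, differed from these in its introns, which held 37.9, 54.0 and 50.4% of alignments, against 6.78, 10.7 and 2.42% in Tpr. Tnpo3, which imports SR proteins, and Ahctf1, needed for pore assembly, had 3.43, 3.05 and 5.64 and 3.81, 4.70 and 4.22.

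A second group of 12 runs carried genes for chromatin proteins, with densities from 3.78 to 21.1 and a median of 81.6% of alignments in exons. From a list of 14 long chromatin regulators, 3 named a run, Kmt2c and Setd2 among them. None named a run from lists of 14 oocyte genes, 10 genes of 2-cell activation and 7 cumulus genes, and windows outside runs were not searched. A run needs 40 kb, so short genes cannot name one, and these counts say nothing about the RNA level of the listed genes. In all, 82 runs were named. The share of all genes of like length that name a run was not computed, so 3 of 14 cannot be called many or few. The paired acetyltransferases Ep300 and Crebbp both had runs, at 7.39, 11.5 and 9.55 (chr15:81440001-81490000) and 5.37, 6.96 and 5.82 (chr16:4080001-4130000). Litter 2 was the highest in both by total alignments, and litter 3 after scaling by the median of ratios. Setd2, the H3K36 methyltransferase, had 4.46, 3.89 and 4.61. The H3K4 demethylase Kdm5b had 9.10, 8.24 and 8.12 with 62.8, 58.5 and 80.9% in exons. Smarca5, the ISWI ATPase, had 8.31, 8.49 and 11.3 with 85.7, 83.7 and 71.9% in exons, where litter 3 was the lowest. Rif1, in the same group, had 16.3, 16.6 and 20. The cohesin regulators Wapl and Pds5a differed: 85.2, 91.1 and 87.7% of alignments lay in Wapl exons and 21.7, 32.6 and 31.4% in Pds5a exons. Only 66.1% of the Pds5a run lay in the gene.

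Ubiquitin ligases and related proteins named 9 runs, with densities from 4.08 to 14.8. The HECT ligase Trip12 led them at 12, 17.1 and 15.2, with 29 of its 41 exons inside the run (chr1:84720001-84760000). Of its 28 exons of 72 or more bases in the run, 28 held alignments in all litters. The cullins Cul1 and Cul3 had 4.77, 5.46 and 6.67 and 5.70, 9.23 and 7.91, and Cand1, which exchanges their substrate receptors, had 6.21, 5.84 and 8.69. Introns held 5.74, 0 and 4.44% of alignments in Cul1 and 34.3, 24.9 and 39.0% in Cul3. The deubiquitinases Usp33 and Usp34 had 4.50, 3.69 and 4.07 and 3.96, 3.74 and 4.76. Psme4, a proteasome activator, had 3.03, 5.47 and 6.11, with litter 1 over 1.5 times below the others. Fbxo15, an F-box protein known from early embryos, had 9.22, 11.6 and 12.6.

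Another 12 runs carried genes that act on mRNA, from 2.97 to 13.4 in density. Cnot1, the scaffold of the CCR4-NOT deadenylase, matched 44 edges at chr8:98240001-98300000 and had 6.37, 6.16 and 5.64. Pan3, of a second deadenylase, had 4.05, 4.04 and 7.62, and the poly(A) polymerase Papola had 2.49, 3.90 and 5.88, in both cases with litter 3 the highest. Among translation factors, Eif5b had 5.78, 4.90 and 5.75, Eif4g1 had 3.17, 2.48 and 4.40 and Eif4enif1, which binds eIF4E, had 2.56, 4.80 and 5.32. Exons held 64.7, 40.5 and 49.3% of alignments in Eif4g1 and 60, 43.4 and 64.6% in Eif5b, in both with litter 2 the lowest. The RNA-binding protein Larp4 had 12.3, 10.9 and 14.1. Hdlbp, another, had 2.78, 3.13 and 2.99. Marf1, a regulator of oocyte meiosis and RNA stability, had 6.51, 3.97 and 4.08, with 88.4, 89.8 and 92.4% in exons and 0.443, 1.12 and 0.0242% in introns. In these 12 runs 233 of 248 exons of 72 or more bases held alignments in every litter.

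Spindle and centrosome genes named 3 runs. Cenpe, a kinetochore kinesin, had 4.05, 4.29 and 6.91, Nin, which anchors microtubules at the centrosome, had 6.61, 6.13 and 8.61, and Haus6, of the augmin complex, had 7.05, 6.35 and 7.38. Exons held 71.1, 81.4 and 72.5%, 92.3, 83.6 and 90% and 74.3, 76.4 and 86.6% of their alignments in litters 1 to 3. Litter 3 was the highest in density in all 3 runs.

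Introns held few alignments in some named runs and many in others. The intron share was under 5% in 21 of 82 runs, and 11 runs had under 50% of alignments in exons. Shares are of all alignments in a run, and densities are those of the whole run. The named gene spanned 92.6% of the run at the median and 39.1% at the lowest, and over 90% in 46 runs. Alignments outside the named gene, or in exons of other genes alone, count in neither share. It was lowest in Jak2, where 0.0381, 0.0521 and 0.106% of alignments lay in introns against 92.4, 94.0 and 93% in exons. Next to it, Fam208b had 1.12, 0.116 and 0.330% and Marf1 the values above. At the upper end, introns of Nup98 held 37.9, 54.0 and 50.4%, and those of Gpcpd1, a phosphodiesterase of choline metabolism, 52.7, 28.0 and 42.8%. The intron share exceeded 50% in at least 1 litter in 3 runs: Nup98 in litters 2 and 3, Gpcpd1 in litter 1, and Tbc1d15, a Rab GTPase activator, in litter 3, with 28.1, 13.6 and 51.5%.

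Among exons inside the run, neither end led at the median run. Over 79 named runs with at least 6 exons of 120 or more bases, the log2 ratio of exon density in the 3′ part to that in the 5′ part had a median of 0.05 (quartiles -0.63 and 0.78). The 3′ part was higher in every litter in 27 runs and the 5′ part in 28. Dnajc21, a ribosome biogenesis cofactor, had the highest mean ratio at 2.96. The litters had 2.57, 3.31 and 3.00, so all 3 were higher toward the 3′ end of the exons inside the run. Only part of many genes lay inside a run, 72.5% of the gene's length at the median. The rule asks for signal over neighbouring windows, so genes with signal at 1 end only were less likely to enter. The median ratio thus describes the chosen runs and not genes at large.

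Copied runs were those in which over 50% of alignment starts lay in stretches of 8 successive starts whose distances and counts in all 3 litters were found again elsewhere, in either orientation. Of 158 runs, 31 were copied. Of all autosomal starts, 28.5% lay in such stretches, which is a share of starts and not of regions. Counted by window, 165 of the 780 members were mostly recurring, against 14469 of all 247243 autosomal windows, where windows with few starts could not count. Copied runs had a median density of 9.43 against 5.83 in the other 127, and they held 41.2%, 45.0% and 36.7% of member alignments in litters 1 to 3. A single exception, Srp54c, carried a name, and its near-identical copies make that name uncertain. Both even runs and 6 of 14 mixed runs were copied. No start in any run lay in a stretch shared with the mitochondrial chromosome, as far as its coverage allowed starts to be recovered.

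Copied runs included 2 long series. On chromosome 1, 6 runs lay between 84.96 and 87.55 Mb, with densities over all their 39 windows of 17.0, 26.2 and 21.4. None of the 6 was block-like, and litter 2 was the highest in each. Their starts recurred at the other runs of the series: for chr1:85150001-85200000, 72.6% of recurring stretches were found in chr1:87370001-87420000. Unplaced contigs held 98.0% of the recurring stretches of chr1:85230001-85300000. On chromosome 4, 9 runs lay between 145.65 and 147.15 Mb with 7.06, 6.84 and 6.98, which is 6.96 ± 0.111 (SD, n = 3). All 9 were block-like. In chr4:146390001-146440000, every start lay in a recurring stretch, and 73.9% of the stretches were found in chr4:146120001-146170000. Densities of these 2 runs were 6.41, 6.33 and 6.32, and 6.39, 6.32 and 6.33, which are not independent values.

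In 12 copied runs most recurring stretches were found again inside the run itself. The densest run, chr11:60400001-60510000, was among them with 97.2% of its recurring stretches. In chr2:83790001-83840000 it was 99.8%, with densities of 16.1, 17.3 and 15.3. At the start of chromosome 9, chr9:3000001-3040000 had 100% and densities of 11.8, 41.0 and 5.59, so litter 2 lay far above litter 3. Further copied runs of this kind were chr13:68050001-68090000 and chr7:58190001-58250000, with 99.0% and 99.6%. In chr10:81150001-81190000, where 99.6% of starts recurred, all of the recurring stretches had a copy within 3 Mb. A second measure was the share of starts with 20 or more alignments in each litter whose 3 counts recur anywhere. It was 100% in 21 runs, of which chr1:85230001-85300000, chr4:146390001-146440000, chr4:146730001-146770000, chr12:89050001-89120000 and chr13:68050001-68090000 had the most such starts, 52, 32, 32, 26 and 12. The other 16 had 1 to 5 starts, and they include chr3:58220001-58270000, which was not a copied run. That measure could be taken in 86 runs only, and its median over them was 69.4%. In Wnk1 it was 42.1% of 159 starts, although 11.5% of all starts there lay in recurring stretches. This measure alone therefore does not mark a copied run.

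The remaining 46 runs were neither named nor copied. Of them 44 were block-like, and their median covered share was 30%. The 2 mixed ones were chr3:58220001-58270000 and chr19:3860001-3900000. In the first, 58.0% of 1 kb bins held the level in every litter and densities were 9.64, 10.5 and 13.4. The second had 60% and 7.50, 7.63 and 6.92. Among runs that were not copied, the first had the highest covered share, and 5.52% and 8.53% of their starts recurred elsewhere. Mixed runs with a name included Trip12, Tpr, Rif1, Cnot1 and Fam208b.

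By total nuclear alignments, litters lay within 2-fold of each other in most runs. The rule asked for the level in all 3 litters, so windows below it in 1 litter could not enter. The values below describe the chosen runs and do not test how well litters agree. The median coefficient of variation over 3 litters was 19.1%, and the highest litter lay a median of 1.44 times above the lowest. The litters were over 2-fold apart in 14 runs and over 1.5-fold apart in 68. Over the 158 runs the correlation of log2 density was 0.885 between litters 1 and 2, 0.904 between 1 and 3, and 0.851 between 2 and 3 (Pearson), and 0.855, 0.887 and 0.851 (Spearman), with copied runs not independent of each other. Inside a run, the correlation between litters over 100-base bins, on log2(counts per 1000000 nuclear alignments + 0.1), had a median of 0.758, from 0.318 to 0.983.

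**Figure D5:**
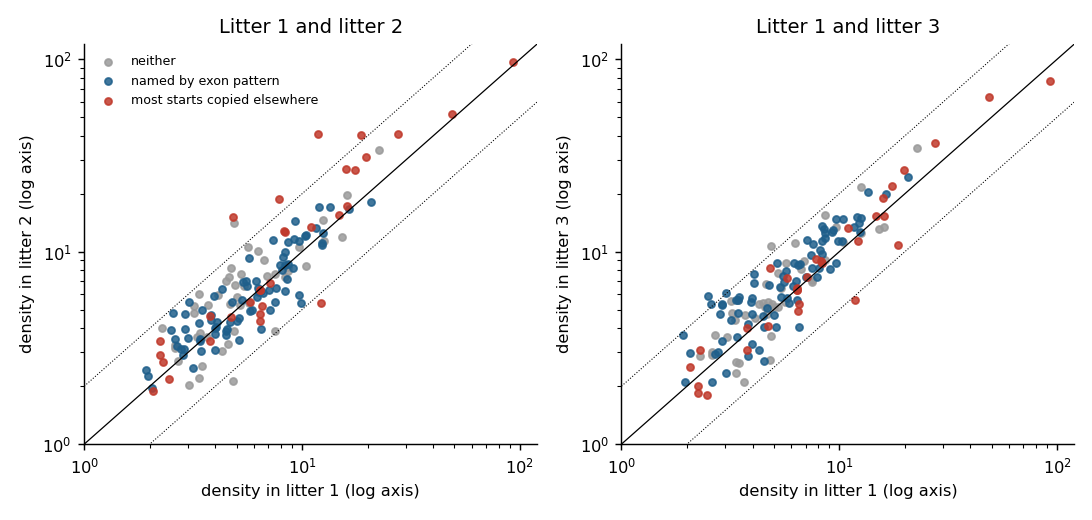
Density of each of 158 runs in litter 1 (x axis, log) against litter 2 (left) and litter 3 (right), with a solid line of equality and dotted lines at 2-fold. Most runs lie between the dotted lines, and the runs farthest above the line for litter 2 include copied runs.

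The order of the litters depended on the scaling. Litter 3 was the highest in 52 of the 81 named runs that were not copied, litter 2 in 19 and litter 1 in 10. Among the 31 copied runs litter 2 was the highest in 17, litter 1 in 8 and litter 3 in 6. Scaled by the median of ratios over windows, which moved litter 2 by 0.22 and litter 3 by -0.19 on the log2 scale in the factor that divides them, litter 3 was the highest in 69 of the named and 16 of the copied runs. Runs over 2-fold apart then numbered 31. The lead of litter 2 in all 6 runs of the chromosome 1 series fell to 3 of 6 under that scaling.

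The largest spread between litters was at chr9:3000001-3040000, where litter 2 lay 7.34 times above litter 3 (5.53 times with the median of ratios). It was followed by chr13:68050001-68090000 with 18.6, 40.4 and 10.8, chr17:35520001-35590000 with 4.82, 15.2 and 8.26, chr11:3030001-3070000 with 4.87, 14.1 and 10.7, and chr1:193710001-193750000 with 3.35, 6.01 and 2.34. Litter 2 was the highest in all 5. With the median of ratios litter 3 was the highest at chr11:3030001-3070000, and litter 2 in the other 4. The first 3 of these runs were copied, and the last 2 were neither copied nor named. Named runs over 2-fold apart were Eif4enif1, Psme4, Papola, Jmy, Ddhd1 and Ipo5. Jmy, an actin nucleator, had 9.86, 5.44 and 11.3, with litter 2 lowest. Ddhd1, a phospholipase, had 4.29, 6.39 and 3.10, with litter 3 lowest.

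Runs found in a pair of litters were read in the litter left out, which the choice of those runs did not use. Runs from litters 2 and 3 held 1118 windows, of which 89.1% reached the level in litter 1, against 5.23% of all autosomal windows there. From litters 1 and 3 it was 91.4% of 1036 in litter 2, against 5.69%. From litters 1 and 2 it was 88.6% of 1138 in litter 3, against 5.41%. Windows at the level in the same pairs but in shorter rows reached it in 85%, 87.8% and 85.3% of cases. The share in runs was thus the higher in all 3 litters, at 89.7% ± 1.51 against 86.0% ± 1.57 (SD, n = 3), and most of the distance from the background is shared with expressed windows of any row length.

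The level sets where a run ends. In 37 member windows the lowest litter was between 1 and 1.1, and the member nearest the level was a window of the Evi5 run at chr5:108250001-108260000 with 1.41, 1.00 and 2.12. Of 316 windows that flank the runs, 187 were below the level in all 3 litters, 57 in 2 and 72 in 1. In 13 flanking windows the lowest litter was between 0.9 and 1, the nearest at 0.993. The median density of flanking windows was 0.419, and 99 were under 0.1. Flanking windows thus went from sequence with little signal to windows that missed the level in 1 litter only. The share of all autosomal windows under 0.1 was not read, so 99 of 316 cannot be called many or few.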

How the data were processed

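Each library's deposited file is a signal track: per the file headers and the submitters' processing notes, reads were aligned with Bowtie to mm9 and the authors wrote unscaled coverage per base. For the Bowtie version and the treatment of reads with several places, no source used here gives a setting. Coverage was split into ungapped alignments of 72 bases, and each was counted in the 10 kb window that holds its midpoint. Runs, shapes and blocks were computed with Python 3.11.15, numpy 2.4.6 and pandas 2.3.3, and the scripts were tested on simulated data. Members, gene lists and roles were chosen with earlier results of these data known. Runs were to be described by name in 6 sets: the 10 longest, the 5 densest, the 5 with the highest and 5 with the lowest covered share, the 5 that differ most between litters by log2 SD, and the 5 with the largest share of recurring start counts, where ties were settled by the number of starts. The windows nearest the level were added to these.

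Genes had been planned only for an mm9 annotation. The exon matching (edges within 3 bases at 1 common shift, 10 or more edges, a lead of 1.5) and the copy measure were chosen after the data were seen. The matching was tried on the exon edges of 20 annotated genes, with some exons left out and edges moved by less than the tolerance. It named 20 of 20 genes (100%) rightly and 0% of mirror images. That trial held no coverage, no broken blocks and no blocks of a second gene, so it does not measure naming errors in these runs. Sequences come from GENCODE M21 on GRCm38, and positions are those of the files in mm9. Reads across splice junctions are not in ungapped coverage. The 3′ and 5′ parts are the last and first exons of 120 or more bases in equal number, with 0.001 added to each density. The labels call the libraries separate litters, so the spread includes biology, pooling and amplification. Alternatives are in the closing section. X, Y, mitochondrial and unplaced sequences entered no run. The results of some named runs are not reported here.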

Additional observations from a re-analysis of the deposited data

Results flagged for a closer look

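The same rule applied outside the autosomes also found runs. On chromosome X there were 6 runs with 32 windows. The densest, chrX:12720001-12800000, had 23.0, 47.5 and 42.2 in litters 1, 2 and 3, and 78.2% of its starts recurred elsewhere. The other 5 had mean densities from 4.17 to 5.81 and between 7.27% and 18.3% of starts recurring.

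On contigs assigned to a chromosome but not placed there, 7 runs with 54 windows passed. Of these, 5 belong to chromosome 1 and 2 to chromosome 8. Their mean densities ran from 9.12 to 35.8, and from 88.0% to 96.0% of their starts recurred elsewhere. By total nuclear alignments litter 2 was the highest in all 7, and after scaling by the median of ratios litter 2 was the highest in 2 and litter 3 in 5.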

How the results depend on the processing

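With a level of 0.5 there were 393 runs, 2043 windows, a median covered share of 26.1% and 382 block-like runs, and with a level of 2 there were 57 runs, 264 windows, a median length of 40 kb and 43 block-like runs. Each start counted once, with density scaled to distinct starts in place of nuclear alignments, gave 498 runs, 2647 windows, 25.3% covered and 487 block-like runs. The level then asked for fewer counts in a window, so these runs are not a gain at the same level. Windows of 5 kb gave 25 runs, 242 windows and 40 kb, and windows of 20 kb gave 828 runs, 2070 windows and 40 kb. Allowing 1 window below the level gave 405 runs and 1785 windows. Runs of 3 or more numbered 383 with 1455 windows, and runs of 6 or more numbered 36 with 248. The median length was also 40 kb with the median of ratios, without windows of recurring counts, and without copied runs, an alternative added after seeing the data that left 0 even runs. Coverage of 3 or more alignments gave a covered share of 23.3%. Called by covered bases, 6 runs were even (at least 50% in every litter) and 27 were block-like (under 25% in every litter). By 1 kb bins these counts were 2 and 142. The held-out share was 96.7% at 0.5 and 73.9% at 2. Without 1 litter there were 210 to 227 runs, 1036 to 1138 windows, 50 kb, 27.4% to 30.3% covered, 2 to 3 even and 192 to 203 block-like runs. The cause of these moves was not tested. No paired analysis was possible because all 3 litters belong to 1 group. Repeated starts made up 72.2%, 65.0% and 74.0% of alignments in litters 1 to 3, so alignments are not independent molecules.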
